A study of Caenorhabditis elegans with 18 samples.

Results

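The transcripts of 10-day worms fed on *Lactobacillus rhamnosus* CNCM I-3690 were compared with those of 10-day worms fed on *L. rhamnosus* CNCM I-4317. The comparison used 3 arrays of each strain, 6 of the 18 arrays of the study, and took every one of the 22625 probe sets. All groups were wild-type N2 *Caenorhabditis elegans*, and at a given time the diet was the only factor by which the labels separate them. Whether the groups were also handled apart is not stated. The worms were grown from embryos of gravid adults on a lawn of CNCM I-3690, CNCM I-4317 or the *Escherichia coli* strain OP50, the standard laboratory food, and were collected after 10 or 3 days of feeding. In the study, CNCM I-4317 served as the control strain of the same species. A whole worm was measured, with its gut, muscle, hypodermis, neurons and germ line together, so that fewer cells of a type and less RNA per cell cannot be told apart. The arrays of a group are labelled as separate samples. Since the labels do not say that they came from separate cultures, the p-values measure the spread between these samples, which may be technical. That spread was estimated over all 18 arrays, those of 3 days included. The standard errors and confidence intervals below are thus not those of the 10-day arrays alone.

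Several gene families are the usual points of contact between a worm and its food bacteria. The gut digests the bacteria with proteases and lysozymes and secretes C-type lectins and saposin-like proteins, some of which act against microbes, while infection response genes are induced by pathogens. Bacteria also supply lipids, folate, heme and vitamin B12, and the enzymes and transporters that handle these respond to the supply. The insulin receptor DAF-2 restrains the transcription factor DAF-16, which drives genes of stress resistance, among them small heat shock proteins. The cuticle, the outer coat of the worm, is built of collagens from a very large gene family, secreted by the hypodermis and renewed at each larval molt, with a set that is still made in the adult.

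Levels are given as log2 expression for single probe sets, array by array, and each difference below is CNCM I-3690 minus CNCM I-4317 at 10 days on the log2 scale unless another is named. The differences were small. Their median over all probe sets was -0.02 and their SD 0.21, and a difference beyond 1 was seen at 90 probe sets that were higher on CNCM I-3690 and 14 that were lower. Arrays of the same strain correlated across probe sets with r of 0.986 to 0.993, and arrays of different strains with r of 0.985 to 0.993, so that the strains did not separate at this level. Replicate 1 of OP50 at 10 days stood apart from the other 10-day arrays (r of 0.976 to 0.984). It belongs to neither strain, but it enters the estimate of the spread. For a probe set with a mean of at least 2, a level above the median of the arrays (1.27 to 1.31 on these 6), the 95% confidence interval of the difference reached a median of 0.34 to either side, which is 1.27-fold. Probe sets of oocytes (*rme-2*, the yolk receptor, 8.78 on CNCM I-3690, against 8.65 on CNCM I-4317) and of muscle (*unc-54*, a myosin, 6.10 on CNCM I-3690, against 5.78 on CNCM I-4317) were well measured, while the gut regulator *elt-2*, at 0.36 and 1.39 on CNCM I-3690 and at 0.56 and 1.55 on CNCM I-4317 in the means of its probe sets, was near the floor of the arrays.

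By limma's moderated test, 4 probe sets passed at an adjusted p under 0.10, which is 0.0177% of all. Of these, 3 rose on CNCM I-3690 (0.0133%) and 1 fell (0.00442%). At an unadjusted p under 0.05, a level at which chance alone passes many of so many probe sets, 1634 passed (7.22%), of which 638 were higher (2.82%) and 996 lower (4.40%). The higher ones were thus 39.0% of these, but 51.9% after median centring of the arrays and 51.5% after cyclic loess, so that the excess of lower values depends on the scaling. All 3 arrays of CNCM I-3690 lay above all 3 of CNCM I-4317 at 1172 probe sets (5.18%) and below them at 1725 (7.62%), together 12.8%. Against OP50 at 10 days, 122 probe sets passed on CNCM I-3690 (0.539%), and CNCM I-4317 had 212 (0.937%). These contrasts share arrays with the comparison of the strains, and their values are given beside it.

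The first of the 4 was *far-7* (chromosome II), a member of the nematode family of fatty acid and retinol binding proteins, which carry lipids outside cells. It was at 2.57, 2.55 and 2.46 on CNCM I-3690, at 1.47, 1.45 and 1.56 on CNCM I-4317, and at 2.40, 2.32 and 2.51 on OP50. The arrays of CNCM I-3690 and OP50 thus shared 1 range, and those of CNCM I-4317 lay apart below it. The difference between the strains was 1.04 (standard error 0.15, 95% confidence interval 0.71 to 1.36, 2.05-fold, adjusted p = 0.0352 by limma). The arrays of CNCM I-4317 lay near the median of all probe sets, where a level is not shown to be above background, so that the fold is that of the measured values only. Against OP50 the difference was 0.12 on CNCM I-3690 (adjusted p = 0.974) and -0.92 on CNCM I-4317 (adjusted p = 0.0110). At 3 days all 3 diets were near the level that CNCM I-4317 had at 10 days, with means of 1.57 ± 0.265 on CNCM I-3690, 1.51 ± 0.0468 on CNCM I-4317 and 1.38 ± 0.369 on OP50 (SD, n = 3 each).

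*F43C11.7* (chromosome II), for which no role was taken from the annotation, had the same order of diets. Its levels were 3.2, 3.69 and 3.72 on CNCM I-3690, against 2.76, 2.48 and 2.45 on CNCM I-4317. The OP50 arrays, at 3.27, 3.48 and 3.38, fell within the range of CNCM I-3690. The strains differed by 0.97 (standard error 0.14, 95% confidence interval 0.67 to 1.27, adjusted p = 0.0352). The difference from OP50 was 0.16 on CNCM I-3690 (adjusted p = 0.940) and -0.81 on CNCM I-4317 (adjusted p = 0.0145). At 3 days the means were 2.08 ± 0.0817 on CNCM I-3690, 2.05 ± 0.202 on CNCM I-4317 and 2.06 ± 0.11 on OP50 (SD, n = 3 each), below every array of 10 days.

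*F15B9.6* (chromosome V), annotated as a phospholipase, was the probe set that fell on CNCM I-3690. It was at 3.83, 4.03 and 3.88 on CNCM I-3690 and at 5.22, 5.19 and 4.76 on CNCM I-4317. The OP50 arrays were at 3.17, 3.69 and 3.85, so that here CNCM I-4317 stood apart above the other diets. The difference between the strains was -1.14 (standard error 0.17, 95% confidence interval -1.5 to -0.78, adjusted p = 0.0352). It was 0.34 for CNCM I-3690 against OP50 (adjusted p = 0.721) and 1.49 for CNCM I-4317 against OP50 (adjusted p = 0.000531). At 3 days no array of any diet was above 0.88, near the floor, so that this gene was well measured in the older worms only.

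*H25K10.4* (chromosome IV), for which no role was taken either, was the only one of the 4 with a different level on each diet. It was at 4.10, 3.81 and 4.07 on CNCM I-3690, at 3.14, 3.11 and 2.65 on CNCM I-4317, and at 1.97, 1.23 and 1.85 on OP50, with no overlap between any of the 3 groups. The strains differed by 1.02 (standard error 0.17, 95% confidence interval 0.66 to 1.38, adjusted p = 0.0996), just inside the threshold. Both strains were above OP50, CNCM I-3690 by 2.31 (adjusted p = 3.66e-06) and CNCM I-4317 by 1.28 (adjusted p = 0.00215). At 3 days the means were 0.76 ± 0.0743 on CNCM I-3690, 1.0 ± 0.147 on CNCM I-4317 and 0.83 ± 0.0991 on OP50 (SD, n = 3 each). Its probe set has a suffix that marks probes which can bind other transcripts.

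**Figure D1:**
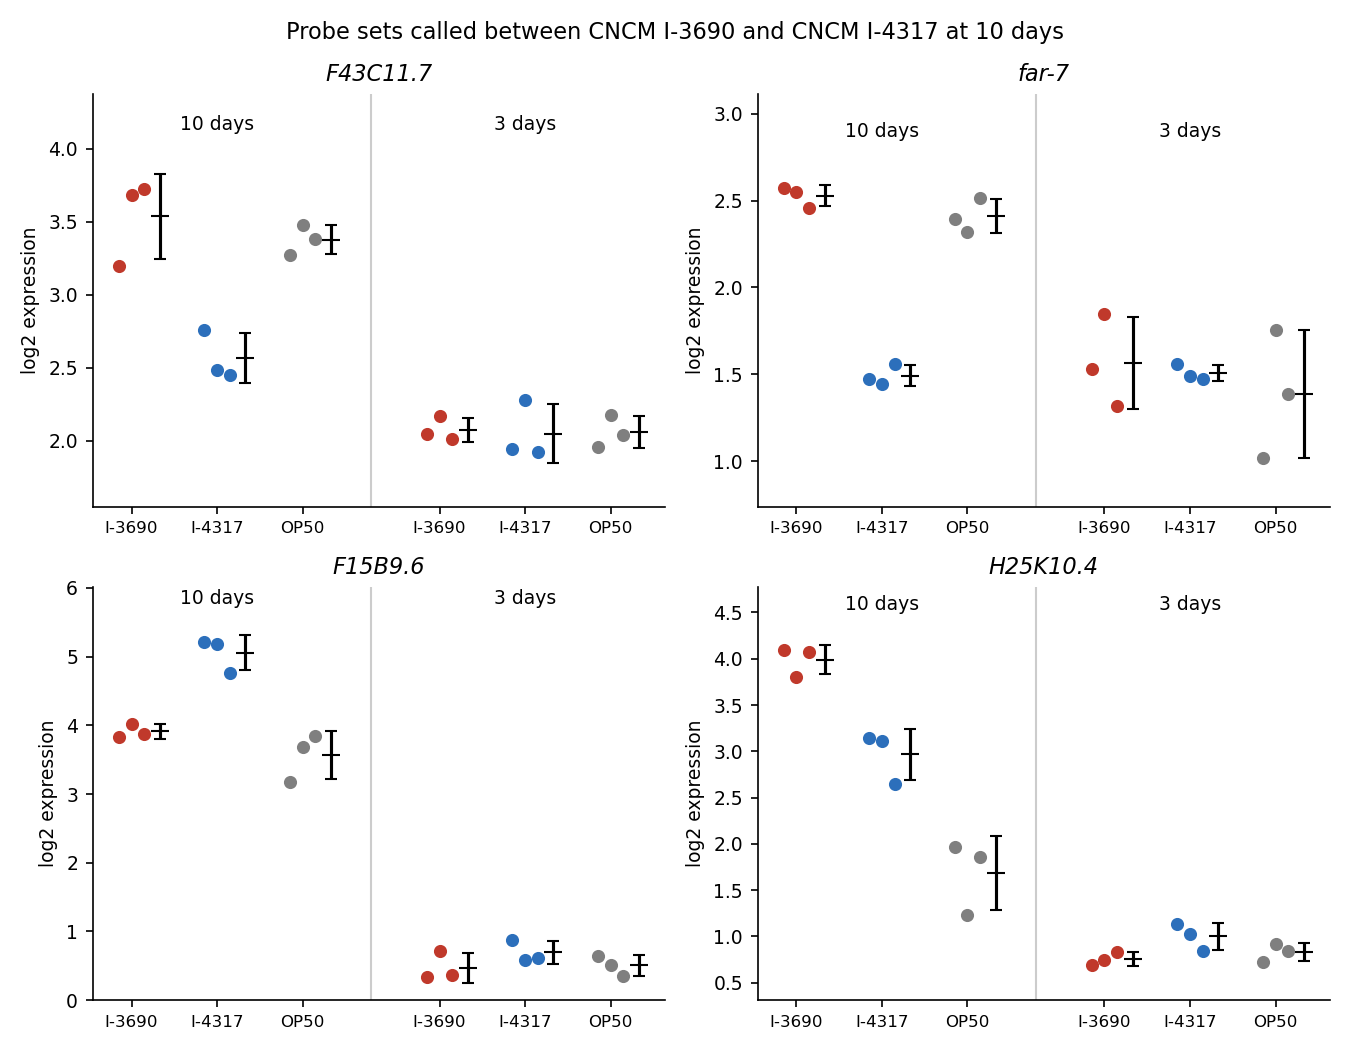
Log2 expression (vertical axis) of the 4 probe sets called between the strains at 10 days, on every array of CNCM I-3690, CNCM I-4317 and OP50 at 10 days (left of the grey line) and 3 days (right of it). Points are arrays and the bars beside them are the mean ± SD of 3. The arrays of the strains do not overlap at 10 days in any panel, and all 4 differ by less at 3 days.

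No probe set came close behind these: the next adjusted p was 0.179. The calls leaned on the 3-day arrays, which enter the estimate of the spread. In a limma fit of the 9 arrays of 10 days only *far-7* passed (adjusted p = 0.0211). There the adjusted p was 0.484 for *F43C11.7* and *F15B9.6* and 0.648 for *H25K10.4*. Leaving out an array changed the calls. Each of the 4 lost its call when replicate 2 or replicate 3 of CNCM I-3690 was left out (adjusted p from 0.113 to 0.189), *far-7*, *F15B9.6* and *H25K10.4* also when replicate 1 of that strain was (0.144, 0.144 and 0.354), and *F43C11.7* and *H25K10.4* without replicate 3 of CNCM I-4317 (0.108 and 0.181). The size of each difference moved little, from 1.01 to 1.07 for *far-7*, 0.88 to 1.14 for *F43C11.7*, -1.29 to -1.06 for *F15B9.6* and 0.87 to 1.12 for *H25K10.4*. Without replicate 1 of OP50, the array that stood apart, 22 probe sets passed (15 higher, 7 lower), among them all 4 and *col-140*, *col-133*, *folt-2* and *acs-1*, described below.

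Below the threshold, the 12 highest differences among well measured probe sets (1 gene symbol, unadjusted p under 0.01, no overlap of the arrays and a mean of at least 2 on the higher strain) all belonged to cuticle collagens, from 10 genes. None of them passed limma's test over all probe sets, with adjusted p from 0.190 to 0.512. *col-20* had the largest difference, at 5.97, 4.88 and 5.09 on CNCM I-3690 and at 1.37, 3.44 and 4.78 on CNCM I-4317, a difference of 2.12 (standard error 0.62, adjusted p = 0.400). The collagen with the smallest adjusted p was *col-140*, at 9.14, 8.26 and 8.49 on CNCM I-3690 and at 6.29, 7.04 and 7.81 on CNCM I-4317. Its difference was 1.58 (standard error 0.32, adjusted p = 0.190), and the OP50 arrays, at 7.69, 6.70 and 6.75, lay in the range of CNCM I-4317. In both genes the highest of the 6 arrays was replicate 1 of CNCM I-3690 and the lowest replicate 1 of CNCM I-4317. The other genes of this set were *col-160* (1.72 and 1.34 on its probe sets), *col-159* (1.52), *col-139* (1.49), *col-119* (1.49 and 1.29), *col-80* (1.45), *col-8* (1.31), *col-124* (1.25) and *col-133* (1.23). *col-139* entered through CNCM I-3690, since on CNCM I-4317 it was at 1.17, 1.46 and 1.73, near the array median, and its difference and rank are those of the measured values only. *col-159* and *col-160* are neighbours in the genome, with 0 protein-coding genes between them, and collagen sequences are alike enough that their probe sets may share transcripts.

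Of 148 cuticle genes measured, 27 were higher on CNCM I-3690 at an unadjusted p under 0.05 and 1 was lower. This is 18.2% against 2.77% of all 17118 genes with a probe set of their own, and 0 of the 148 passed after adjustment. The arrays of CNCM I-3690 all lay above those of CNCM I-4317 for 25.7% of the cuticle genes and 5.09% of all genes. The median difference of the list was 0.14, against -0.02 over all genes. Of the 148, 100 were above 0, and of all 17118 genes 7738 were. This shift of the median was larger on probe sets whose suffix letter marks possible binding of other transcripts. The median was 0.57 for the 61 genes read by these. It was 0.027 for the 87 read by others, of which 46 were above 0 and 10 were higher at that unadjusted level (11.5%). Among the 92 with a mean of at least 2, the median was 0.52 and 26 were higher (28.3%, against 3.96% of all genes at that level). The 56 with a mean under 2 had a median of -0.01. Suffix letter and level were not separated. All 27 belonged to the *col* genes, 128 in number, and 0 of the 20 genes of the list named for body shape, such as *dpy*, *rol*, *sqt* and *bli*, were among them. *col-19*, a collagen of the adult cuticle, was at 5.70, 4.49 and 4.36 on CNCM I-3690 and at 2.13, 4.53 and 3.73 on CNCM I-4317, so that the arrays overlapped. It differed by 1.39 (adjusted p = 0.565), and the larval collagen *sqt-3* by 0.18 and 0.09 on its probe sets. Whether adult and larval collagens differ as classes was not tested. *col-37* was the 1 that was lower (-0.42, adjusted p = 0.472).

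The 27 genes were placed differently relative to OP50. CNCM I-3690 was above OP50 in the mean of all 27, and CNCM I-4317 was below OP50 in 17 of them. Both of these contrasts share the OP50 arrays, and replicate 1 of OP50 had the highest mean of the cuticle genes among the 9 arrays of 10 days (3.27). *col-106*, singled out after its values were seen, was at 9.20, 8.55 and 8.88 on CNCM I-3690, at 8.29, 7.98 and 8.37 on CNCM I-4317 and at 7.78, 7.51 and 7.35 on OP50, without overlap between the diets. The strains were 0.66 apart (standard error 0.15, adjusted p = 0.263), CNCM I-3690 was above OP50 by 1.33 (adjusted p = 0.000346) and CNCM I-4317 by 0.66 (adjusted p = 0.0691). At 3 days the difference between the strains ran from -0.15 to 0.76 for the 27, none at an unadjusted p under 0.05, a level that 5.06% of all genes reached upward at that time.

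The collagen result rested on few arrays. Of the 27 genes, 21 had their highest value on replicate 1 of CNCM I-3690 and 20 their lowest on replicate 1 of CNCM I-4317. The mean of all cuticle genes was 3.17, 2.81 and 2.94 on CNCM I-3690, against 2.49, 2.71 and 2.74 on CNCM I-4317, and the OP50 arrays, at 3.27, 2.59 and 2.42, covered the whole of this range. The count of 27 fell to 16 without replicate 1 of CNCM I-3690, to 16 without replicate 1 of CNCM I-4317 and to 8 without both (5.41%, against 2.27% of all genes in that fit). Probe sets with a suffix letter held 17 of the 27 (27.9% of 61), and those without held 10 (11.5% of 87, against 2.78% of all genes with such probe sets). The muscle genes moved with the same arrays: their mean was 5.17 on replicate 1 of CNCM I-3690 and 4.58 on replicate 1 of CNCM I-4317, and 4.64 to 4.90 on the other 4. Their median difference was 0.24, with 26 of 32 above 0, and it was 0.03 without both replicates 1. At an unadjusted p under 0.05, 2 were higher (*act-4* at 0.40 and *unc-27* at 0.54), which is 6.25% against 2.77% of all genes. The part of muscle content in the collagen values was not tested.

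**Figure D2:**
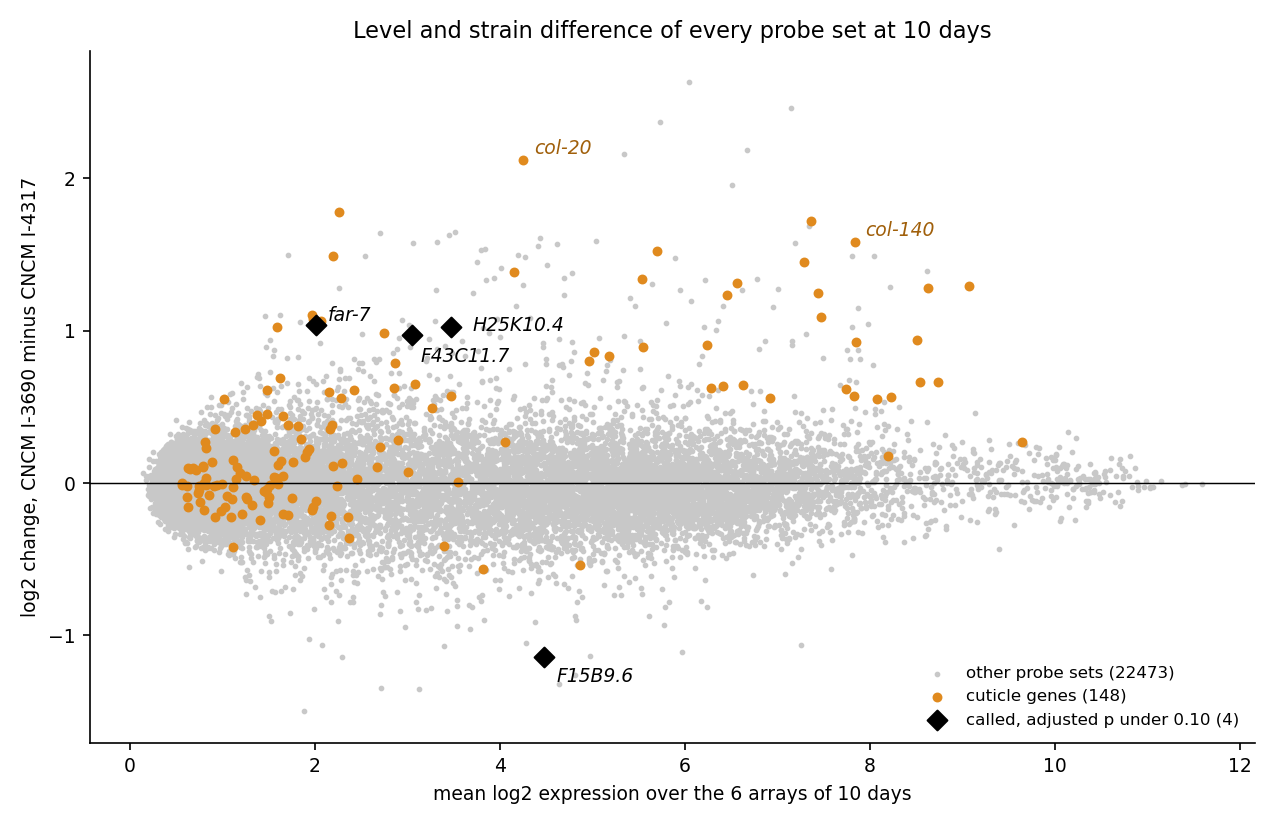
Difference between the strains (vertical axis, log2, CNCM I-3690 minus CNCM I-4317) against the mean log2 expression over the 6 arrays (horizontal axis) for each probe set at 10 days. Cuticle genes, 1 probe set each, are orange and the 4 called probe sets black. The cuticle genes with a mean of at least 2 over all arrays of both times lie mostly above 0, with a median of 0.52. That mean is not the one on the horizontal axis.

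The 12 lowest differences by the same rule came from 11 genes of mixed kinds. Apart from *F15B9.6*, none passed the test. The lowest was *irg-6*, named for its induction by infection. It was at 1.18, 1.24 and 1.0 on CNCM I-3690, at the floor of the arrays, and at 1.5, 3.74 and 2.67 on CNCM I-4317, where the arrays differed most among themselves. Its difference was -1.5 (standard error 0.34, adjusted p = 0.281), and it passed when replicate 1 of CNCM I-4317 was left out (-2.07, adjusted p = 0.00313). It was -0.94 when replicate 2 of that strain, its highest array, was left out (adjusted p = 0.279), and the adjusted p ranged up to 0.602 with 1 array left out. OP50, at 1.08, 1.03 and 1.49, was like CNCM I-3690, and CNCM I-4317 differed from it by 1.44 (adjusted p = 0.0836).

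*irg-8*, another infection response gene, was at 4.79, 4.04 and 3.71 on CNCM I-3690 and at 5.71, 4.94 and 5.67 on CNCM I-4317 (difference -1.26, standard error 0.28, adjusted p = 0.263). The gene next to it, *dod-19*, with 0 protein-coding genes between, was at 5.88, 5.11 and 5.27 on CNCM I-3690 and at 6.56, 6.35 and 6.68 on CNCM I-4317 (difference -1.11, adjusted p = 0.350). Like the other *dod* genes, *dod-19* is named for lying downstream of DAF-16, and the name does not say whether DAF-16 raises or lowers it. In both, OP50 lay between the strains in the mean. *F01D5.2* and *F01D5.3*, also neighbours, differed by -0.90 and -0.86 and were at 0.06 and -0.05 for CNCM I-3690 against OP50.

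Among 8 *irg* genes, 3 were lower on CNCM I-3690 at an unadjusted p under 0.05 and none higher, with *irg-1* (-0.39, adjusted p = 0.400) as the other one, and the median was -0.39. On CNCM I-4317 this gene was above OP50 by 0.82 (adjusted p = 0.0027) and on CNCM I-3690 by 0.43 (adjusted p = 0.159). Of 9 *dod* genes, *dod-19* was lower and *dod-23* higher (0.49, adjusted p = 0.685), and the median was -0.28. Both of these lists were drawn up after the leading genes had been seen, and the background shares are 2.77% for higher and 4.28% for lower.

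*folt-2*, of the folate transporter family, was the only one of these lower genes that passed between CNCM I-3690 and OP50 and not between CNCM I-4317 and OP50. It was at 2.16, 1.86 and 2.11 on CNCM I-3690, at 3.57, 3.50 and 3.10 on CNCM I-4317 and at 4.49, 3.44 and 3.15 on OP50. The difference between the strains was -1.35 (standard error 0.30, adjusted p = 0.259), that of CNCM I-3690 from OP50 was -1.65 (adjusted p = 0.0243) and that of CNCM I-4317 from OP50 was -0.30 (adjusted p = 0.777). *acs-1*, an acyl-CoA synthetase that activates branched chain fatty acids, was lower on both of its probe sets. On the first it was at 3.48, 3.63 and 4.17 on CNCM I-3690 and at 4.64, 5.17 and 4.62 on CNCM I-4317, and the differences were -1.05 (adjusted p = 0.190) and -0.93 (adjusted p = 0.310). The other members were *T15B7.1* (-1.14), *Y39A3CL.4* (-0.96) and *Y37H2A.14* (-0.94), which have no role in the annotation used. At 3 days several of these lower genes were higher on CNCM I-3690 at an unadjusted p under 0.05: *dod-19* by 0.93 (adjusted p = 0.331), *Y37H2A.14* by 0.65 (adjusted p = 0.393), *irg-8* by 0.61 (adjusted p = 0.550) and 1 probe set of *acs-1* by 0.50 (adjusted p = 0.520). The change between the times was -2.04 for *dod-19* and -1.87 for *irg-8* and did not pass (adjusted p = 0.310 for both).

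**Figure D3:**
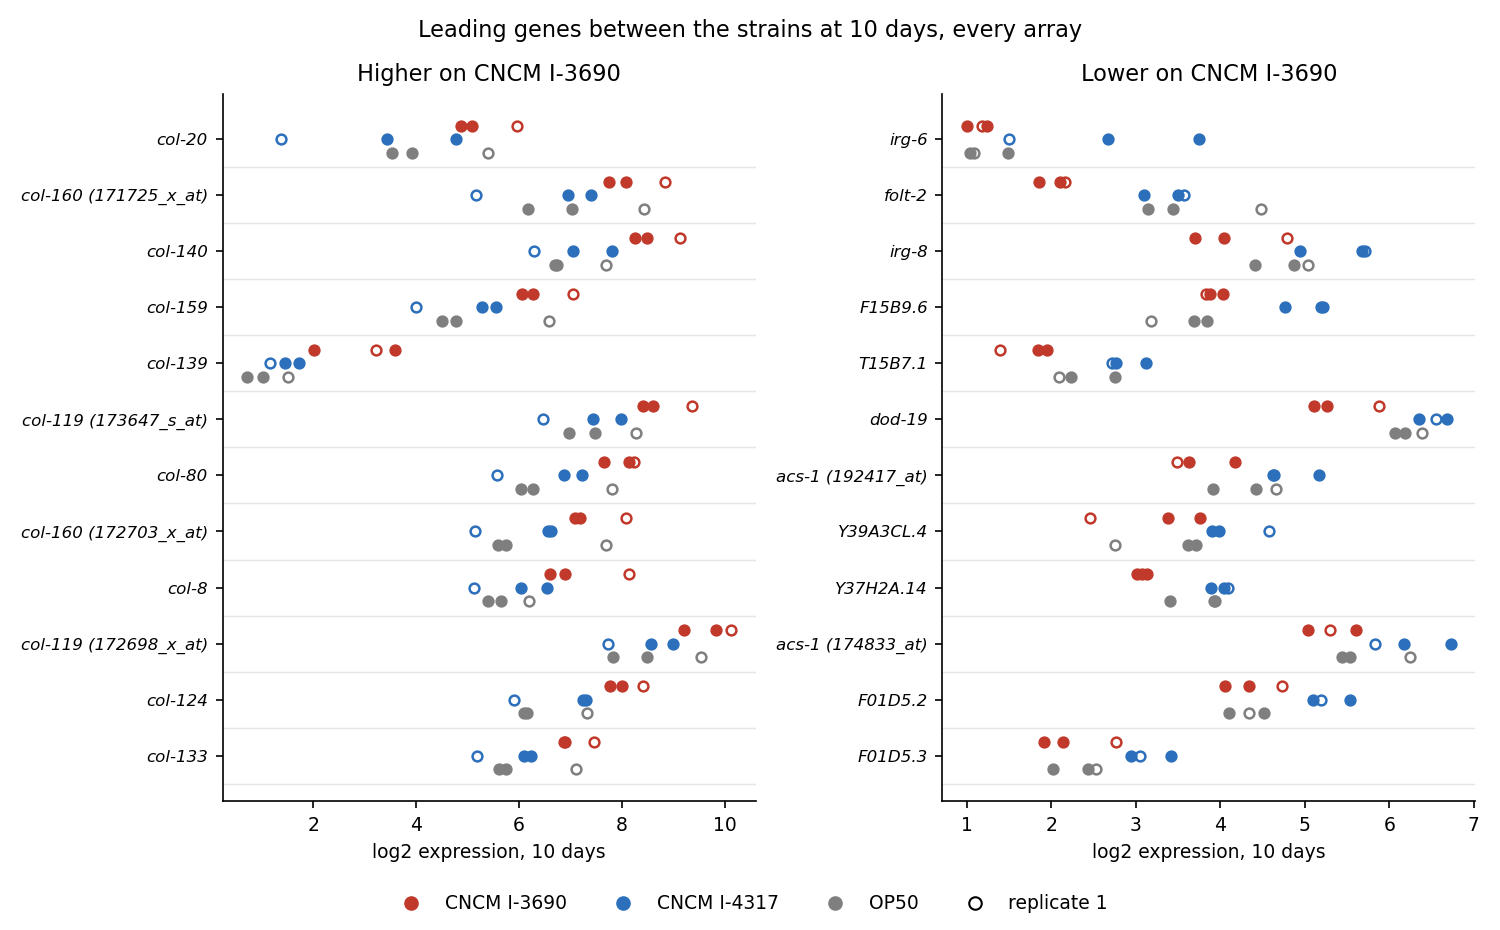
Log2 expression (horizontal axis) of the 12 probe sets with the highest (left) and the 12 with the lowest (right) differences between the strains, on the 9 arrays of 10 days. Open circles are replicate 1 of each diet. On the left, the open circles of CNCM I-3690 lie at the upper end of that strain for all but *col-139*, those of CNCM I-4317 at the lower end for all 12.

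In lipid metabolism, *far-7* was the only member of the lists that passed. For this and the following lists, 2.77% of all genes were higher and 4.28% lower at an unadjusted p under 0.05. Counts above 0 stand beside 7738 of all 17118 genes. Of 8 fatty acid and retinol binding proteins, *far-7* rose, and *far-4* (-0.61, adjusted p = 0.395) and *far-6* (-0.29, adjusted p = 0.685) were lower at an unadjusted p under 0.05. The abundant *far-1* and *far-2* were at -0.06 and 0.00. Of 7 desaturases, which introduce double bonds into fatty acids, *fat-6* was higher (0.48, adjusted p = 0.685). *fat-7*, the related stearoyl desaturase, averaged 2.47 on CNCM I-3690, 2.31 on CNCM I-4317 and 4.48 on OP50 (differences from OP50 of -2.01 and -2.17, adjusted p = 0.0258 and 0.0123). Of 8 elongases, 2 were above 0, with a median of -0.09, and *elo-2* was lower (3.90, 3.51 and 3.80 on CNCM I-3690, against 4.24, 5.2 and 3.99 on CNCM I-4317; difference -0.74, adjusted p = 0.553). Of 61 genes of fatty acid breakdown, 2 were higher and 4 lower, with a median of -0.04. *acs-2*, an acyl-CoA synthetase of mitochondrial fatty acid oxidation, differed by 1.16, but its value on replicate 2 of CNCM I-4317 was 3.43, where the other 5 arrays had 5.60 to 6.37. Lipases, lipid binding proteins and vitellogenins, the yolk proteins, had 0 members at that level in either direction.

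Among genes of the gut and of defence, the saposin-like proteins had 4 of 18 higher (22.2%, against 2.77% of all genes) and 0 lower. Their median was 0.14, and it was 0.041 without replicate 1 of CNCM I-3690. *spp-8* was at 5.45, 5.71 and 5.63 on CNCM I-3690, at 4.79, 5.25 and 4.76 on CNCM I-4317 and at 5.04, 5.06 and 4.91 on OP50 (difference 0.66, standard error 0.14, adjusted p = 0.216). *spp-4* was at 5.91, 5.22 and 5.53 on CNCM I-3690 and at 4.14, 5.33 and 4.32 on CNCM I-4317 (difference 0.95, adjusted p = 0.310), and rose on CNCM I-3690 against OP50 by 1.44 (adjusted p = 0.0112). The others were *spp-10* (0.37) and *spp-15* (0.48). Of 220 C-type lectins, 9 were higher and 8 lower, shares close to those of all genes, led by *clec-60* (0.94). Of 16 lysozymes, which break bacterial walls, *lys-6* was higher (0.54) and *ilys-2* (-0.85) and *lys-8* (-0.31) lower. *ilys-2* averaged 1.30 on CNCM I-3690, 2.16 on CNCM I-4317 and 4.75 on OP50. Of 26 aspartyl and cysteine proteases, 3 were higher, with *asp-12* at 1.08, and *cpr-3* was lower (-0.49). Of 20 antimicrobial peptides, 1 was higher, *nlp-33* (1.06), and 1 lower, *abf-2* (-0.51), and of 12 galectins only *lec-9* was lower (-0.77).

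Of 25 genes described as driven by DAF-16, 8 were higher on CNCM I-3690 at an unadjusted p under 0.05 (32%, against 2.77% of all genes) and 1 lower, and 0 passed after adjustment. The median was 0.18, with a range from 0.10 to 0.32 when 1 array of a strain was left out, and 19 were above 0. These 8 were *hsp-12.3*, *hsp-12.6*, *hsp-16.2*, *hsp-16.21*, *hsp-16.41*, *hsp-70*, the trehalose synthase *tps-1* and *fat-6*. All but *tps-1* and *fat-6* are heat shock proteins, so that the share of 32% is mostly that of 1 kind of gene. In the separate list of 12 small heat shock proteins, 5 were higher (41.7%) and 0 lower. The largest was *hsp-16.2*, a heat-induced chaperone, at 7.61, 8.32 and 7.38 on CNCM I-3690, at 7.34, 3.00 and 6.41 on CNCM I-4317 and at 5.91, 7.85 and 8.08 on OP50. The difference was 2.19 with a standard error of 0.86 (adjusted p = 0.616), and replicate 2 of CNCM I-4317 stood far below the other 8 arrays. *hsp-70*, a cytosolic chaperone that heat also induces, had the same low array, at 5.70, 7.52 and 6.06 on CNCM I-3690 and at 6.72, 1.88 and 4.20 on CNCM I-4317 (difference 2.16, adjusted p = 0.623), and so did *hsp-16.41* (difference 1.96), at 3.29 on that array and 6.43 to 7.77 on the other 5. Without that array the differences were 0.90 for *hsp-16.2*, 0.97 for *hsp-70* and 0.83 for *hsp-16.41*, and the count of 8 was 2. It was 1 without replicate 2 of CNCM I-3690 and 2 in a fit of the 9 arrays of 10 days. *hsp-12.3*, at 2.28, 2.17 and 2.19 on CNCM I-3690 and at 1.91, 1.86 and 1.25 on CNCM I-4317, had its low array in replicate 3 of CNCM I-4317 (difference 0.54, standard error 0.17, adjusted p = 0.470).

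Of 26 components of insulin and TOR signaling, upstream of or beside DAF-16, 2 were higher (7.69%) and 3 lower (11.5%) at an unadjusted p under 0.05. Of all genes, 2.77% were higher and 4.28% lower at that level. The median of the list was 0.05. The lower ones were *rict-1*, a subunit of the TOR complex TORC2 (-0.40), *raga-1*, a small GTPase that activates TOR (-0.61), and *aap-1*, the adaptor of the insulin receptor's lipid kinase (-0.28). The higher ones were *daf-18*, the phosphatase that opposes this kinase (0.35), and *daf-15*, the Raptor subunit (0.31). Their adjusted p ran from 0.456 to 0.646. The arrays of the strains did not overlap in 9 of the 26 genes of the list, 5 above and 4 below, against 12.8% of all probe sets. *daf-16* itself averaged 5.23 on CNCM I-3690, against 5.41 on CNCM I-4317, on its most abundant probe set (difference -0.18, 95% confidence interval -0.44 to 0.09). Its other probe sets differed by 0.20, by -0.19 and, near the floor, by -0.02. For *daf-2*, on a probe set near the floor, the interval ran from -0.37 to 0.19. *sod-3*, a mitochondrial superoxide dismutase often used as a readout of DAF-16, was at 0.12, with an interval from -0.13 to 0.38. Of 24 insulin-like peptides, 2 were higher, with *ins-6* at 0.65, and 1 lower, *ins-34* at -0.46.

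For the response to oxidants, 0 of 26 antioxidant enzymes (superoxide dismutases, catalases, peroxiredoxins and their like) were at an unadjusted p under 0.05 in either direction, and their median was 0.04. Of all genes, 2.77% were higher and 4.28% lower at that level. *skn-1*, which encodes a transcription factor that oxidants activate, was read differently by its probe sets. On 1 of them it was at 1.49, 1.68 and 1.41 on CNCM I-3690, at 2.29, 2.23 and 1.97 on CNCM I-4317 and at 1.34, 1.32 and 1.71 on OP50 (difference -0.64, standard error 0.16, adjusted p = 0.328), while the more abundant probe sets were at 0.15 and 0.11. Of 14 targets of SKN-1, only *gcs-1*, the first enzyme of glutathione synthesis, was past that level (-0.45, with 0.10 on its other probe set). Of 45 glutathione S-transferases, *gst-36* (0.75) and *gst-22* (0.69) were higher and *gstk-1* (-0.43) lower. Of 73 cytochromes P450, enzymes that oxidize lipids and foreign compounds, 6 were higher (8.22%) and 2 lower (2.74%). Among them were *cyp-34A9* (1.16), *cyp-32B1* (0.79) and *cyp-14A5* (-0.82). *cyp-32B1* was at 2.79, 2.36 and 2.58 on CNCM I-3690 and at 1.46, 1.95 and 1.96 on CNCM I-4317 (adjusted p = 0.304), and passed against OP50 on CNCM I-3690 (0.92, adjusted p = 0.0434) but not on CNCM I-4317 (0.13, adjusted p = 0.862). Of 64 UDP-glucuronosyltransferases, 3 were higher and 3 lower.

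Of 13 chaperones of the endoplasmic reticulum, 5 were above 0, with a median of -0.01, and 3 were lower at an unadjusted p under 0.05 (23.1%, against 4.28% of all genes) and none higher: the calcium-binding chaperone calreticulin, *crt-1* (-0.43, adjusted p = 0.390), *dnj-7* (-0.54) and the disulfide isomerase *pdi-3* (-0.27). *crt-1* was at 9.01, 9.30 and 9.23 on CNCM I-3690, at 9.64, 9.88 and 9.31 on CNCM I-4317 and at 9.78, 9.80 and 9.76 on OP50, and fell on CNCM I-3690 against OP50 by 0.60 (adjusted p = 0.0486). Of 8 heme-responsive genes the heme transporter *hrg-1* was lower, at 4.35, 4.49 and 4.32 on CNCM I-3690 and at 4.17, 6.34 and 5.26 on CNCM I-4317 (-0.87, adjusted p = 0.616). Both strains were above the 3.34, 3.16 and 2.92 of OP50, and the call was made for CNCM I-4317 (2.11, adjusted p = 0.00986) and not for CNCM I-3690 (1.24, adjusted p = 0.211). Of the genes of vitamin B12, propionate and methionine metabolism, 4 of 22 were above 0 (7738 of all 17118 genes), with a median of -0.12. *acdh-1*, an acyl-CoA dehydrogenase of the propionate shunt that worms use when B12 is scarce, was at 3.52, 4.73 and 4.98 on CNCM I-3690, at 6.2, 4.94 and 5.48 on CNCM I-4317 and at 7.98, 5.92 and 5.45 on OP50 (difference -1.13, standard error 0.49, adjusted p = 0.661). This difference was -0.69 when replicate 1 of CNCM I-3690 was left out, and -0.36 when both replicates 1 were. *mce-1*, of the B12-dependent route, was higher (0.29, adjusted p = 0.664).

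**Figure D4:**
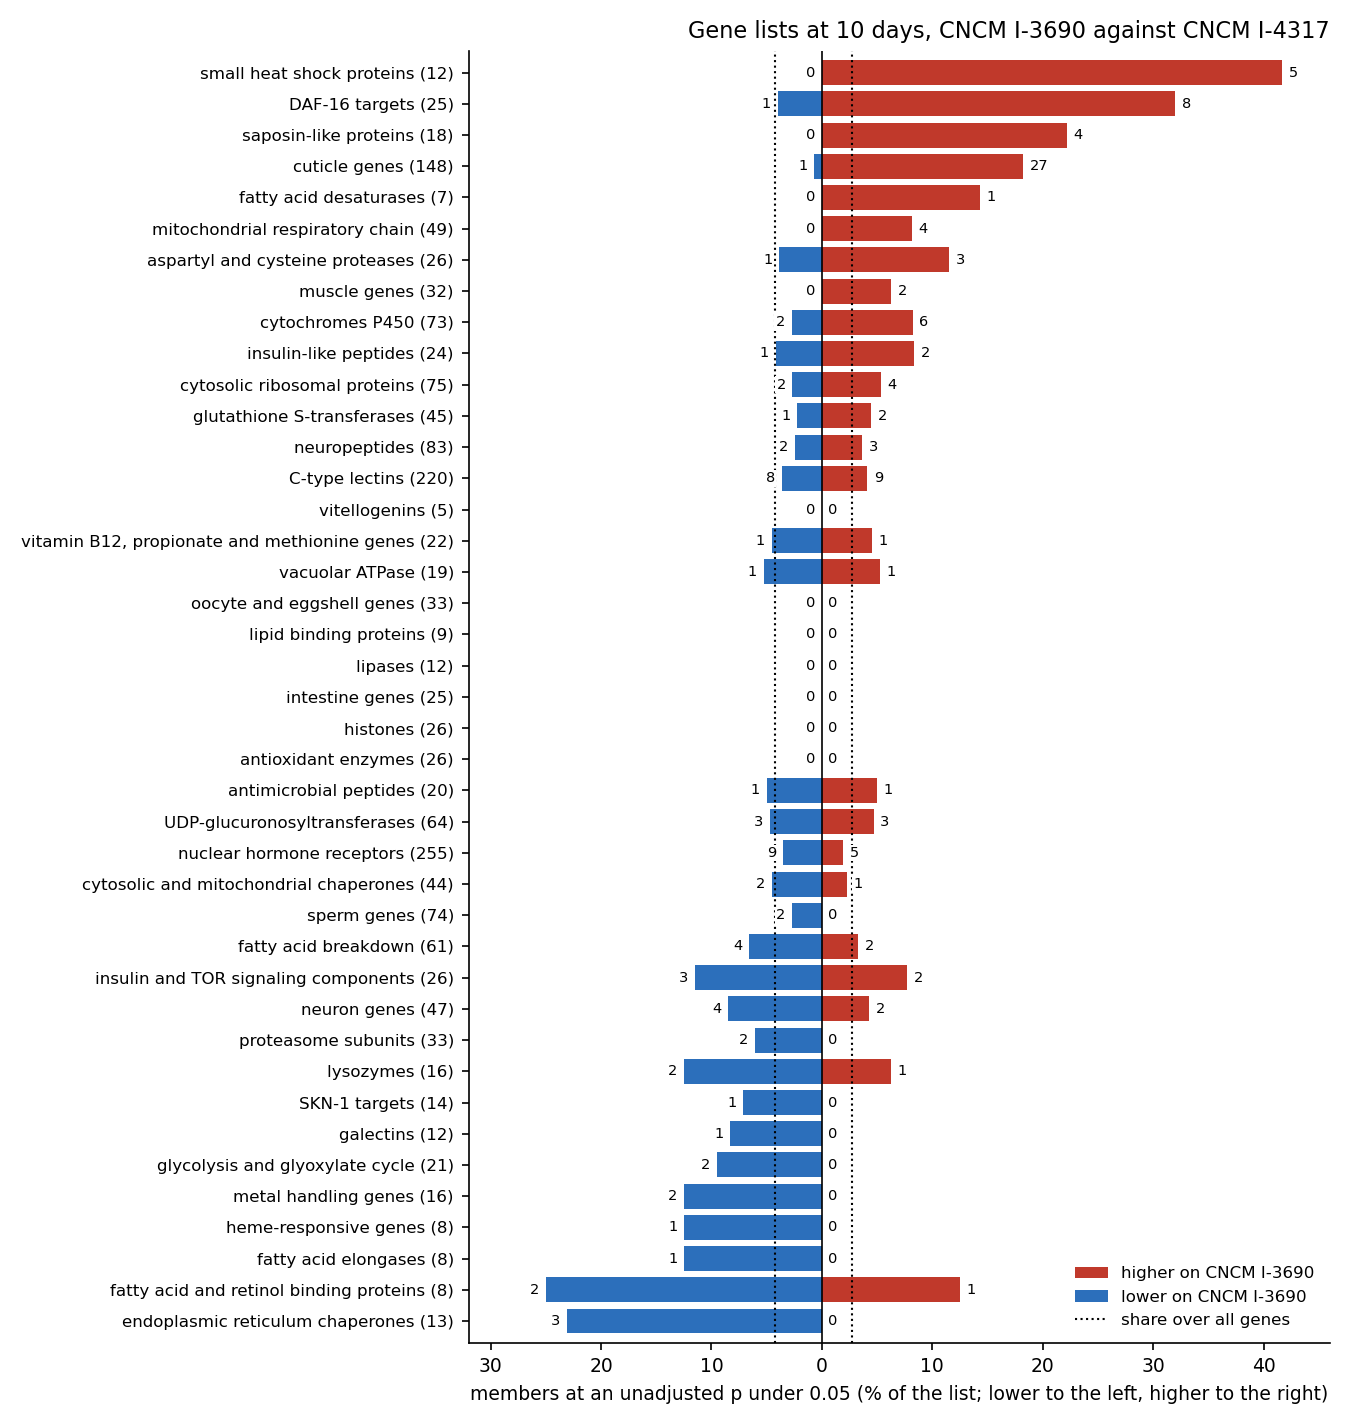
Share of the members of 41 gene lists (rows, number of genes measured in brackets) higher (right, red) or lower (left, blue) on CNCM I-3690 than on CNCM I-4317 at an unadjusted p under 0.05, in % of the list. Numbers at the bars are genes, and dotted lines mark the shares over all genes, 2.77% higher and 4.28% lower. The only member called after adjustment is *far-7*.

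The germ line and the other tissues differed less than their arrays did. Of 74 sperm genes, 0 were higher and 2 lower at an unadjusted p under 0.05 (2.7%, against 4.28% of all genes), with a median of 0.17. Their means were 2.84, 2.59 and 1.54 on CNCM I-3690, against 2.70, 1.57 and 1.6 on CNCM I-4317, so that 3 of the 6 arrays were high in sperm RNA, and the OP50 arrays had 1.45 to 1.68. *msp-50*, a major sperm protein, was at 4.0, 3.83 and 0.88 on CNCM I-3690 and at 3.71, 1.31 and 1.32 on CNCM I-4317. With the sperm mean as a term in the model, chosen after seeing the data, 4 probe sets passed, 3 of the same ones, and *H25K10.4* did not (adjusted p = 0.164). Oocyte and eggshell genes (33) and intestine genes (25) had 0 members at an unadjusted p under 0.05 in either direction and medians of 0.00.

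The strain differences of 10 days were then set beside those of 3 days, which come from other arrays. At 3 days 27 probe sets passed between the strains (0.119%), 24 higher (0.106%) and 3 lower (0.0133%), and 0 passed at both times. Of the 24, 14 were above 0 at 10 days. Their median difference was 0.08 at 10 days, with a range from -0.66 to 0.69, and 1.22 at 3 days, the comparison that selected them, and each was smaller at 10 days. An unadjusted p under 0.05 in the same direction was reached at 10 days by 5 of the 27: *gst-22* (0.69 at 10 days and 1.78 at 3 days), the claudin-like *clc-24* (0.60 and 1.09 at these times), 1 probe set of the acyltransferase-like *acl-12* (0.67 and 1.32), *hsp-12.3* (0.54 and 0.90) and *Y11D7A.16* (-0.18 and -0.44). Both probe sets of the protease *cpr-3* ran the other way, at -0.49 and -0.66 at 10 days and at 1.22 and 1.32 at 3 days. Of all probe sets, 2.82% were higher and 4.40% lower at an unadjusted p under 0.05 at 10 days. *Y11D7A.16* lay near the floor, under the lowest array median of 1.27. Its means at 10 days were 0.60 for CNCM I-3690, against 0.78 for CNCM I-4317. At 3 days they were 0.46 for the first strain, against 0.90 for the other. *lec-11*, a galectin, was at 0.13 at 10 days and 1.43 at 3 days, and *fat-7* at 0.16 and 2.14. Probe sets chosen for a large difference at one time are likely to show a smaller one at another, so that the decrease is a description. Across all probe sets the differences at the 2 times correlated with r of 0.25 (Spearman's rho 0.20, 22625 probe sets, which are not independent), and with r of 0.33 over the 9360 with a mean of at least 2.

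The test of the change itself, the strain difference at 10 days minus that at 3 days, passed for 0 probe sets by limma (smallest adjusted p 0.310, 1228 at an unadjusted p under 0.05, 5.43%). For the 4 probe sets called at 10 days this change was 0.98 for *far-7* (standard error 0.22, adjusted p = 0.342), 0.94 for *F43C11.7* (adjusted p = 0.310), -0.92 for *F15B9.6* (adjusted p = 0.60) and 1.27 for *H25K10.4* (adjusted p = 0.310). It is therefore not shown that these genes differed between the strains only in older worms. Leaving out replicate 3 of CNCM I-3690 from 3 days, 92 probe sets passed this test, without both replicates 1 at 10 days 4, and without replicate 1 or 2 of CNCM I-4317 at 10 days 1 and 2.

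**Figure D5:**
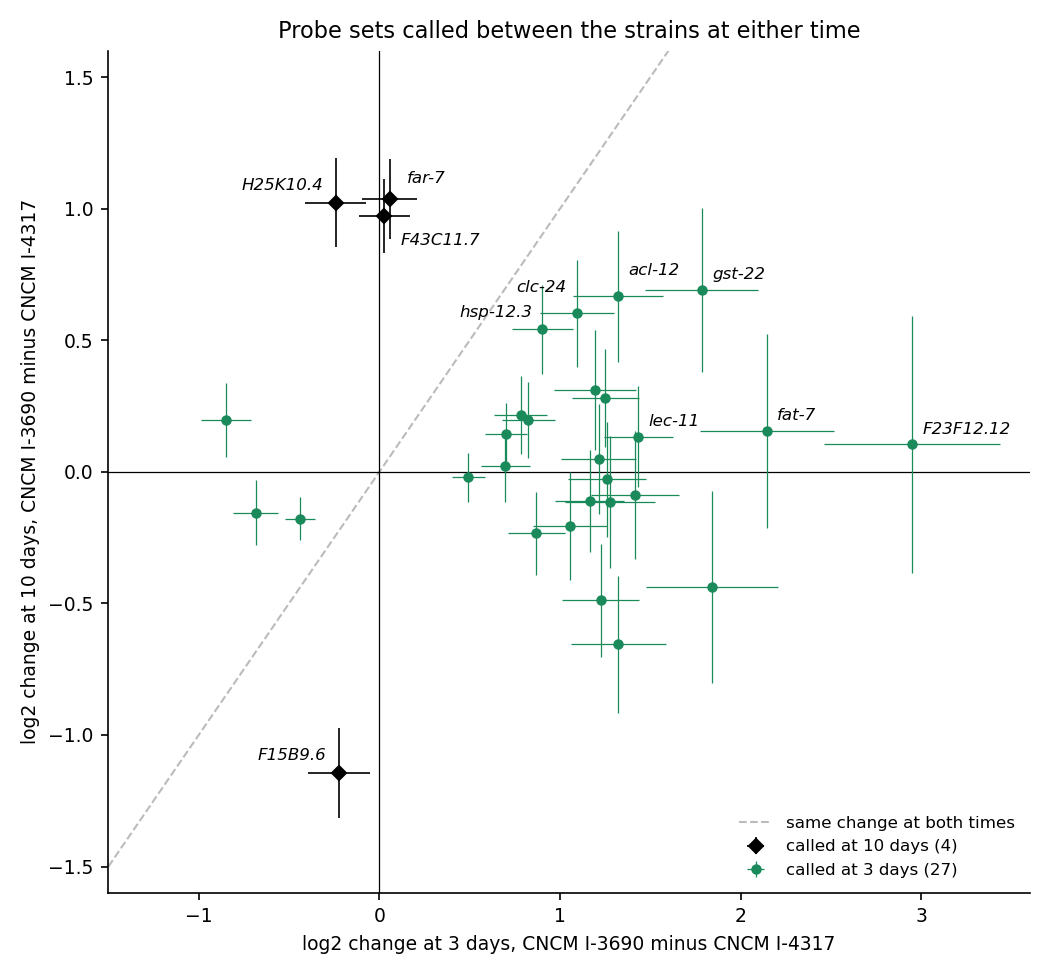
Difference between the strains (log2, CNCM I-3690 minus CNCM I-4317) at 10 days (vertical axis) against 3 days (horizontal axis) for the 4 probe sets called at 10 days (black) and the 27 called at 3 days (green). Bars are standard errors and the dashed line marks equal differences. The green points run along the horizontal axis, between -0.66 and 0.69 at 10 days, and the black points lie between -0.24 and 0.06 at 3 days.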

How the data were processed

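RNA of whole worms had been hybridized to Affymetrix GeneChip *C. elegans* Genome Arrays by the authors, 18 arrays in 6 groups of 3. The Methods mention 4 biological replicates per condition and the supplementary legends 3. The authors normalized the arrays with RMA, which corrects the background and applies quantile normalization (version not given in the sources used here). What the authors deposited is log2 expression per probe set, from -0.064 to 12.0, and it was used without further scaling. Besides the number of arrays, values near the floor and probes that can bind other transcripts limit what was measured.

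Of the probe sets, 20766 carry 1 gene symbol in the platform's annotation (updated for 20701 probe sets through RefSeq gene IDs, assembly WBcel235), 887 several and 972 none; 77 are controls. In R 4.3.3, limma 3.58.1 fitted 1 mean per group to all 18 arrays (12 residual and 4.09 prior degrees of freedom, eBayes defaults). The p-values were adjusted over all probe sets (Benjamini-Hochberg) and called under 0.10. In lists, a gene is represented by its most abundant probe set. No list was tested as a set. Simulated data with known changes were used to test the code.

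The members, lists and tests were chosen with earlier results of these data known. Named are the called probe sets, the 12 highest and 12 lowest differences under the rule given in the text, the probe sets called at 3 days (others than the 12 of smallest p were singled out after their values were seen), and in each list up to 4 members with the smallest p and those that define it, a further few named after their values were seen. Alternatives were a threshold of 0.05, fits of 9 or 6 arrays, a replicate block, a filter above the percentile of 40, median centring, cyclic loess, trend and robust eBayes, other choices of probe set, and each array left out. Leaving out both replicates 1 or replicate 1 of OP50, arrays of 3 days left out and a sperm term were chosen after seeing the data. The lists of *irg*, *dod*, *hsp-16* and *acs* genes were added after seeing the data. No sequences were used here.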

Additional observations from a re-analysis of the deposited data

How the results depend on the processing

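The count of 4 called probe sets was 3 at an adjusted p under 0.05, 1 in the fit of the 9 arrays of 10 days (*far-7*), 0 in that of the 6 arrays of the strains and 7 with the trend and robust settings of eBayes, which included all 4. It ranged from 0 to 17 when 1 array of a strain was left out (lowest on leaving out replicate 2 of CNCM I-3690, highest on leaving out replicate 1 of CNCM I-4317). It was 19 without both replicates 1 and 22 without replicate 1 of OP50. With the replicate number as a block the count was 5, with 3 of the same 4, and *H25K10.4* had an adjusted p of 0.121; the deviations of same-numbered arrays correlated at -0.09, -0.25 and 0.15 at 10 days and at 0.26, 0.046 and 0.47 at 3 days, and since not every pair exceeded 0.1 at either time, the number was not taken as a pairing. The replicate block gave 0 for the change between times. In the fit of 9 arrays the adjusted p was 0.0211 for *far-7*, 0.484 for *F43C11.7* and *F15B9.6* and 0.648 for *H25K10.4*; in that of 6 arrays it was 0.109, 0.367, 0.169 and 0.290 in the order *far-7*, *F43C11.7*, *F15B9.6* and *H25K10.4*. Direction was followed for the 4 called probe sets and for *hsp-16.2*, *hsp-16.41*, *hsp-70*, *col-140*, *acs-1*, *irg-6*, *irg-8* and *acdh-1*. None of these reversed under any alternative run. The direction of the other named genes was not followed. The count of cuticle genes was 48 in the fit of 6 arrays, 10 of 93 with probe sets without a suffix letter, 16 to 31 with 1 array of a strain left out, 8 without both replicates 1 and 40 without replicate 1 of OP50. The count of DAF-16 targets was 4 with 6 arrays, 2 with 9, 5 with the sperm mean as a term, 11 without both replicates 1 and 1 to 10 with 1 array left out. List medians moved to 0.26 for saposin-like proteins under the filter, 0.030 for muscle genes and -0.068 for the vitamin B12 list without both replicates 1, and -0.057 for that list without suffix letters. With 1 array left out, the median ranged from 0.093 to 0.319 for muscle genes, 0.041 to 0.188 for saposin-like proteins, 0.103 to 0.318 for DAF-16 targets (0.430 without both replicates 1) and -0.139 to -0.096 for the vitamin B12 list, and that of fatty acid breakdown from -0.050 to -0.0032. The change between times passed for 0 to 2 probe sets with 1 array of 10 days left out, 4 without both replicates 1 and 92 on leaving out replicate 3 of CNCM I-3690 from 3 days. *col-140* passed on leaving out replicate 3 of CNCM I-4317 (1.96, adjusted p = 0.0884) and without replicate 1 of OP50 (0.0638), and *irg-8* with the sperm term (-1.44, adjusted p = 0.0874). Of the probe sets at an unadjusted p under 0.05, 39.0% were higher; median centring gave 51.9% and cyclic loess 51.5%, so the excess of lower values depends on the scaling. The causes of these shifts were not tested. Values under 2, near the array medians, carry little signal over background.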

Other observations

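Some smaller groups were not described above. Of 49 genes of the mitochondrial respiratory chain, 4 were higher on CNCM I-3690 at an unadjusted p under 0.05 (*sdha-1* of complex II at 0.63, *nuo-4* at 0.35, *cyc-1* at 0.33 and *cox-5A* at 0.20) and 0 lower, with a median of 0.05. The other probe sets of *sdha-1*, *nuo-4* and *cyc-1* were at 0.08, -0.13 and 0.01. Of 47 neuron genes, 2 were higher and 4 lower, and the 4 were *mec* genes of the touch receptor neurons: *mec-1* (-0.37), *mec-12* (-0.31), *mec-14* (-0.29) and *mec-9* (-0.25), of which the means lay between 0.39 and 2.06 on either strain, near the floor. Of 255 nuclear hormone receptors, 5 were higher, with *daf-12*, the receptor of dafachronic acids, at 0.50, and 9 lower, with *nhr-11* at -0.62. Of 16 metal handling genes, the ferritin *ftn-2* (-0.56) and the transporter *smf-1* (-0.36) were lower. Ribosomal proteins (75), proteasome subunits (33) and the vacuolar ATPase (19) had medians of 0.03, -0.05 and -0.10, and 0 of 26 histones were past that level. None of these genes passed after adjustment over all probe sets. Of all genes, 2.77% were higher and 4.28% lower at an unadjusted p under 0.05.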
